A study of Mus musculus with 21 samples.

Results

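Matrix metalloproteinases are zinc-dependent enzymes that cut the collagens, elastin, basement membrane and proteoglycans of the extracellular matrix, and the tissue inhibitors of metalloproteinases (TIMPs) bind their active site and block them. Most are secreted as inactive proenzymes, and the balance of enzyme and inhibitor sets how fast skin matrix is taken down during repair, hair cycling and inflammation. The 10 genes described here are the gelatinases *Mmp2* and *Mmp9*, the stromelysin *Mmp3*, the collagenases *Mmp8* and *Mmp13*, the macrophage elastase *Mmp12*, the membrane-type enzyme *Mmp14* and the inhibitors *Timp1*, *Timp2* and *Timp3*. They were chosen by gene symbol, and all 10 were found among the 55491 rows of both the skin table and the lymph node table.

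RNA was sequenced from 21 libraries of BALB/c mice. Skin came from 12-month-old animals: 3 WT libraries, 2 nonlesional (NL) and 4 lesional (L) libraries of *Ifnk* TG mice, in which the keratin 14 promoter drives the type I interferon gene *Ifnk* in keratinocytes. None of the skin groups received UVB. Inguinal skin-draining lymph nodes (SDLNs) came from WT and *Ifnk* TG mice, untreated or given UVB at 250 mJ/cm2 on 3 days a week for 2 weeks and collected after 2 further weeks, with 3 libraries in each of the 4 groups. The labels do not tie a library to a mouse, so p-values measure the spread between libraries.

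Total counts per library ran from 40499078 to 56511276 in skin and from 27599809 to 36428435 in SDLNs, and 3 counts equal at most 7.41e-06% of a skin library and 1.09e-05% of an SDLN library. *Ifnk* itself had 5 to 14 counts in the L libraries, 6 and 0 in the NL libraries (replicates 2 and 3) and 0 in every WT skin and SDLN library. Summed CPM of 5 basal and suprabasal keratins was 7948 to 23310 in skin and 1.01 to 2.45 in SDLNs, and that of T cell markers 25.1 to 58.8 in skin and 1622 to 2143 in SDLNs. Libraries differed in tissue make-up. Summed CPM (library-size-scaled counts, with TMM factors) of 10 skeletal muscle markers was 27.4 to 7412 in L, 27240 and 31620 in NL and 28830 to 40090 in WT. Summed CPM of 8 adipocyte markers was 832 to 4342 in L, 6791 and 7775 in NL and 8093 to 11630 in WT, and that of hair shaft keratins was 1854 to 6080 in L and at most 1.86 elsewhere in skin. In bulk tissue, fewer cells of a type and less RNA per cell cannot be told apart. In SDLNs, UV-treated *Ifnk* TG replicate 11 stood apart, with a summed CPM of 464 for 12 kidney tubule genes against 2.76 to 6.33 in the other 11 libraries; this list was written after its values were seen.

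Of the 10 genes, *Mmp13*, *Mmp12*, *Mmp3* and *Mmp8* lie in a cluster of 9 protein-coding *Mmp* genes at chr9:7272514-7699585 (GRCm38, GENCODE M21), with no other protein-coding gene between them. The others lie apart, *Mmp2* on chromosome 8, *Mmp9* on 2, *Mmp14* on 14, *Timp1* on X, *Timp2* on 11 and *Timp3* on 10. *Mmp12* shares 157 exon bases with *Mmp1b* and *Timp3* shares 1733 with *Syn3*, each on the opposite strand, and the strand setting of the counting is not given in the sources used here. *Mmp1b* had at most 12 counts in a skin library and *Syn3* at most 260.

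RefSeq promoter windows (GRCm38.p6, 250 bases before to 50 after a gene start) were matched for 8 of the 10 genes, not for *Mmp2* and *Mmp9*. Windows are shown for the genes that differed between L and WT skin and for *Mmp3*, a neighbour in the cluster that did not. Capitals mark the AP-1 motif TGANTCA, which reads the same on both strands and was found in 7.81% of all 32851 windows. AP-1 is the Fos and Jun family of transcription factors, long known to act on stromelysin and collagenase promoters.
Mmp13, chr9:7272264-7272563, plus strand: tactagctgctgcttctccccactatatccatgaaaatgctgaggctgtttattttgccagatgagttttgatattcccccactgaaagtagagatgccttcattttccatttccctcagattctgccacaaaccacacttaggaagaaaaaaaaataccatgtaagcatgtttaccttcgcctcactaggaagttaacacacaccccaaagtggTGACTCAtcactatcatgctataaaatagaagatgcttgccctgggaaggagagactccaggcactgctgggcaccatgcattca
Mmp12, upstream start, chr9:7344147-7344446, plus strand: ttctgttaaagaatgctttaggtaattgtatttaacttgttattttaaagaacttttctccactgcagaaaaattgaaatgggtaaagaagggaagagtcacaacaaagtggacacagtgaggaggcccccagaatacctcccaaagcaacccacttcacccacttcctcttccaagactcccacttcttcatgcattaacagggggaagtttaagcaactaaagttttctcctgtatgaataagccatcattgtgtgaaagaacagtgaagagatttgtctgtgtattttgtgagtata
Mmp12, downstream start, chr9:7347124-7347423, plus strand: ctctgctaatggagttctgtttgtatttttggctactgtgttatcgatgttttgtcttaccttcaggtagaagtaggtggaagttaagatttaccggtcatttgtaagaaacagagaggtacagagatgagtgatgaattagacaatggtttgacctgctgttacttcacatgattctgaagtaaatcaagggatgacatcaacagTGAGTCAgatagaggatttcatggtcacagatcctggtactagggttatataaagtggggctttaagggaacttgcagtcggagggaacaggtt
Mmp3, chr9:7445572-7445871, plus strand: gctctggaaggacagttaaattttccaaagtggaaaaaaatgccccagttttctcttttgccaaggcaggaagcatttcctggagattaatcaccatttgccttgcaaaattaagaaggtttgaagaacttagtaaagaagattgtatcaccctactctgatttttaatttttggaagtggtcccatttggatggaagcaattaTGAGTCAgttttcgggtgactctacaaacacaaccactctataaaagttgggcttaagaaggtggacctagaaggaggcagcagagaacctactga
Timp1, chrX:20869916-20870215, plus strand: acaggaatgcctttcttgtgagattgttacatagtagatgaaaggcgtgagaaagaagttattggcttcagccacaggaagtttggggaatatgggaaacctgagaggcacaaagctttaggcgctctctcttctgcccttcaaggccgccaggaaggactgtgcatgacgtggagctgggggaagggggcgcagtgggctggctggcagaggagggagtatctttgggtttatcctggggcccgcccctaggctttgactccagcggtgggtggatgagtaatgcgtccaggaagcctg
Timp2, chr11:118355362-118355661, minus strand: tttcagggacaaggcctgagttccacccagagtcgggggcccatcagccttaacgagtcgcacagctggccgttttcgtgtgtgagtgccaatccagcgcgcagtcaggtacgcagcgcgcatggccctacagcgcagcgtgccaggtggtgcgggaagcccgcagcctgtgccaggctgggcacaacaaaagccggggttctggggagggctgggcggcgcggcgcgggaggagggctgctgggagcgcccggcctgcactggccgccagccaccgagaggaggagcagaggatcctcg
Exact matches were in 3 of the 9 windows of these genes, and variants of the motif were not searched. The motif began 35 bases upstream of the *Mmp13* start, 44 bases upstream of the second *Mmp12* start and 46 bases upstream of the *Mmp3* start. The ETS motif AGGAAG, searched on both strands, was in 35.4% of all windows and in 7 of the 9 windows of these genes. A match is a run of letters and no evidence of binding.

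Levels were compared between genes per length, as RPKM (CPM divided by exon length in kilobases). In WT skin *Timp2* was highest at 173 RPKM, followed by *Mmp2* at 53.2, *Timp3* at 37.1, *Mmp3* at 25.3, *Mmp14* at 17.7, *Mmp9* at 7.98 and *Timp1* at 2.35 (means, n = 3). *Mmp12* at 0.100, *Mmp8* at 0.0782 and *Mmp13* at 0.0483 RPKM were the lowest. Ranges over libraries overlapped between *Mmp2* and *Timp3*, *Timp3* and *Mmp3*, *Mmp3* and *Mmp14*, and among the 3 lowest genes. With the longest transcript as gene length, *Timp3* (64.0 RPKM) stood above *Mmp2* (58.2 RPKM) and *Mmp14* (32.6 RPKM) above *Mmp3* (25.3 RPKM). In L skin *Timp2* (73.4 RPKM) and *Mmp2* (39.4 RPKM) were still the highest, while *Timp1* reached 8.59 RPKM and *Mmp13* 5.26 RPKM. In SDLNs, *Timp2* RPKM exceeded that of each other gene in all 12 libraries.

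**Figure D1:**
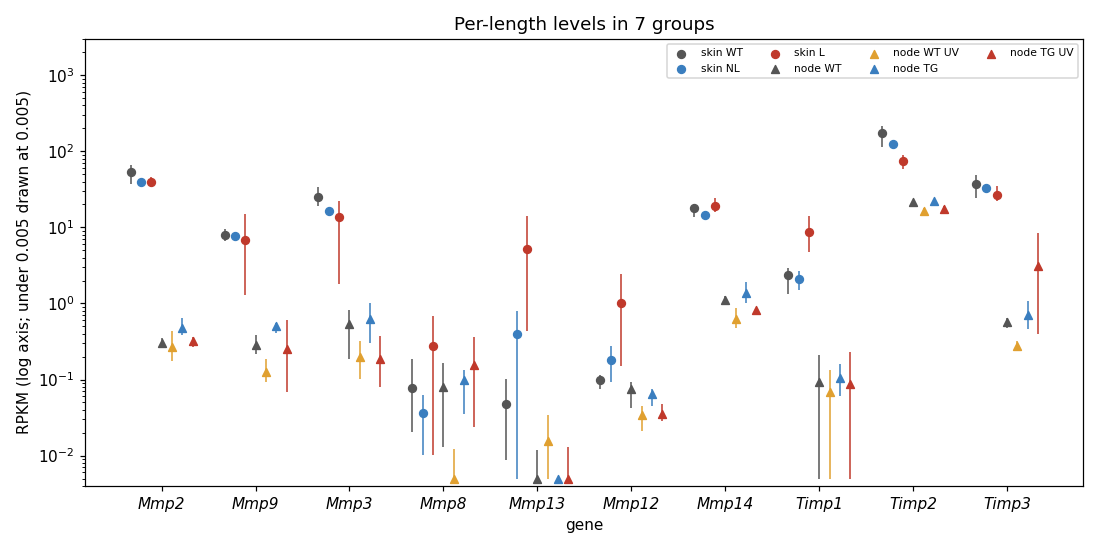
Levels per length of the 10 genes in the 3 skin groups (circles) and the 4 SDLN groups (triangles), in RPKM on a log axis. Symbols are group means and lines run from the lowest to the highest library. *Timp2* is highest in both tissues (173 RPKM in WT skin), and *Mmp13* spans the widest range between skin groups, from 0.0483 RPKM in WT to 5.26 RPKM in L.

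Lesional skin was compared with WT skin to ask what marks a lesion in *Ifnk* TG mice. The collagenase *Mmp13*, the elastase *Mmp12* and the inhibitor *Timp1* were higher in L, and the inhibitor *Timp2* was lower, 4 of 10 genes in all (edgeR quasi-likelihood test, adjusted p under 0.05). Over all 19101 genes tested, 43.1% passed in either direction, 23.0% higher and 20.2% lower, so the share of these genes was near the background. The median log2 fold change of the 10 genes was -0.08 against 0.06 over all genes.

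Among the inhibitors, *Timp1*, the TIMP best known to be induced by inflammatory cytokines, had 12.7, 4.17, 4.76 and 8.88 CPM in L replicates 4 to 7, 1.34 and 2.36 CPM in NL replicates 2 and 3, and 1.19, 2.61 and 2.45 CPM in WT replicates 8 to 10. Each L library lay above each NL and WT library. *Timp1* was 3.67-fold higher in L than in WT (log2 fold change 1.88, SE 0.48, adjusted p = 0.0131).

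*Timp2*, which inhibits metalloproteinases and also takes part in activation of pro-MMP2 by MMP14, had 231, 248, 349 and 316 CPM in L replicates 4 to 7, 482 and 497 CPM in NL, and 437, 846 and 741 CPM in WT replicates 8 to 10. L lay below both other groups without overlap. The log2 fold change against WT was -1.24 (SE 0.23, adjusted p = 0.00337). Mean levels were 675 ± 212 CPM for WT (SD, n = 3) and 286 ± 55.8 CPM for L (SD, n = 4). The muscle and adipocyte marker sums were lower in the same libraries. With muscle, fat, hair shaft and immunoglobulin genes taken out of the counts the log2 fold change was again -1.24, which changes the scaling only, and the part of tissue make-up in the *Timp2* difference was not tested.

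*Timp3*, the TIMP that binds to matrix, had 195, 220, 181 and 284 CPM in L and overlapped with NL (266 and 265 CPM) and WT (197 to 393 CPM). Its log2 fold change against WT was -0.46 (SE 0.24, adjusted p = 0.148). Without WT replicate 8 it passed the test (log2 fold change -0.69, adjusted p = 0.0288).

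Among the collagenases, *Mmp13* had 38.0, 3.33, 13.8 and 1.15 CPM in L replicates 4 to 7, 2.12 and 0 CPM in NL, and 0.0912, 0.0237 and 0.272 CPM in WT replicates 8 to 10. L and WT did not overlap, but NL replicate 2 lay above L replicate 7. The WT values rest on 4, 1 and 11 counts, and the log2 fold change of 6.76 had an SE of 1.87 (adjusted p = 0.0209). *Mmp8*, the neutrophil collagenase, was at 1.68, 0.0247, 0.331 and 0.667 CPM in L and overlapped with WT (0.0495 to 0.451 CPM); its log2 fold change was 1.83 (SE 1.20, adjusted p = 0.248).

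*Mmp12* had 1.09, 17.4, 8.53 and 1.91 CPM in L replicates 4 to 7, 1.97 and 0.662 CPM in NL, and 0.547, 0.784 and 0.841 CPM in WT replicates 8 to 10. L lay above WT in 4 of 4 libraries and overlapped with NL. The log2 fold change against WT was 3.32 (SE 1.01, adjusted p = 0.0292). The highest *Mmp12* level was in replicate 5 and the highest *Mmp13* level in replicate 4.

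The calls for *Mmp12* and *Mmp13* rested on few libraries. With no low-count filter both missed the threshold (adjusted p = 0.0677 and 0.0624). Without WT replicate 8, 9 or 10 in turn, both missed the threshold, and *Mmp12* did so without L replicate 6 as well; over the 9 fits that each left out 1 library the adjusted p ran from 0.00964 to 0.0924 for *Mmp12* and from 0.0163 to 0.0725 for *Mmp13*. *Timp1* and *Timp2* passed in all 9, with log2 fold changes of 1.51 to 2.08 and -1.47 to -1.06.

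The remaining enzymes did not pass with all libraries. *Mmp9* was at 52.8, 6.86, 31.3 and 4.63 CPM in L and 23.3 to 33.6 CPM in WT, with a log2 fold change of -0.24 (SE 0.75, adjusted p = 0.820). *Mmp3* was at 39.7, 3.23, 19.5 and 36.2 CPM in L and 34.7 to 60.9 CPM in WT, with a log2 fold change of -0.88 (SE 0.66, adjusted p = 0.317). For both genes the L libraries spread over a wider range than WT and NL together, and L replicate 5 was low for both. *Mmp2* (log2 fold change -0.43, SE 0.20, adjusted p = 0.103) and *Mmp14* (log2 fold change 0.09, SE 0.18, adjusted p = 0.720) did not pass. *Mmp2* ran from 114 to 154 CPM in L and from 127 to 221 CPM in WT. It passed in 1 of the 9 fits that each left out 1 library, that without WT replicate 8, its lowest WT library (log2 fold change -0.63, adjusted p = 0.0210). *Mmp14* ran from 94.4 to 144 CPM in L and from 81.9 to 120 CPM in WT. For *Mmp14* the 95% interval of the log2 fold change was -0.32 to 0.50.

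**Figure D2:**
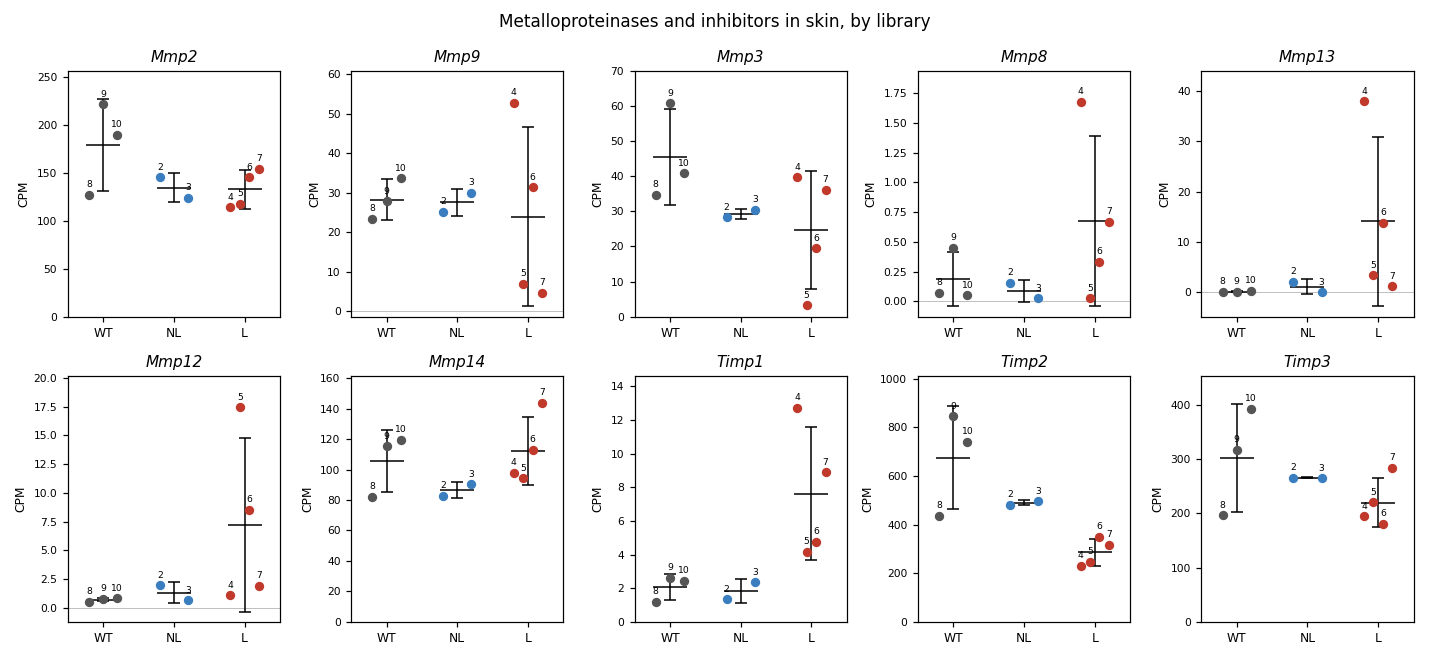
CPM of the 10 genes in each skin library, in WT, NL and L, on linear axes. Points are libraries with their replicate number, and bars are the mean and SD. *Timp1* in L (4.17 to 12.7 CPM) lies above WT and NL and *Timp2* in L (231 to 349 CPM) lies below both, while *Mmp9* and *Mmp3* in L spread around the other groups.

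Marker sums of cell types were set beside these values. The summed CPM of 12 neutrophil markers was 583 in L replicate 4, 146, 77.9 and 66.1 in L replicates 5 to 7, and 12.6 to 21.0 in NL and WT. L replicate 4 also had the highest *Mmp13*, *Mmp8*, *Mmp9* and *Timp1* CPM. L replicate 5, with the next highest sum, had the lowest *Mmp8* (0.0247 CPM) and *Timp1* (4.17 CPM) of the L libraries. Its *Mmp9* (6.86 CPM) lay below NL and WT (23.3 to 33.6 CPM). Of the 12 neutrophil markers, 0 were at 0 counts in L replicates 4 and 7, and 2 in L replicates 5 and 6. Members of this list did not all rise in L against WT. *Mpo* passed (log2 fold change 2.93, adjusted p = 0.0137), while *Elane* (-0.78, 0.50) and *Retnlg* (0.81, 0.48) did not. The sums of 10 macrophage and monocyte markers (308 to 835 in L, 456 and 625 in NL, 460 to 1181 in WT) and of 6 fibroblast markers (1431 to 2885 in L, 1337 and 1983 in NL, 1706 to 2747 in WT) overlapped between groups. For 4 wound keratinocyte markers the sum was 3885, 3646, 5383 and 1757 in L replicates 4 to 7. It was 1212 and 1243 in NL and 469 to 749 in WT, without overlap with L. The part of these cells in the differences was not tested.

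Lesional and nonlesional skin of *Ifnk* TG mice were then compared, with the same L libraries as above. *Timp1* was higher in L (log2 fold change 2.05, SE 0.57, adjusted p = 0.0300), the 1 gene of 10 that passed, where 25.0% of all genes passed in either direction and 13.2% were higher. It missed the threshold without NL replicate 2 (adjusted p = 0.200), NL replicate 3 (0.0996) or L replicate 7 (0.0501), and when only the L and NL libraries were fitted (0.0564). *Timp2* had a log2 fold change of -0.77 (SE 0.26, adjusted p = 0.0588) and did not pass, and its libraries did not overlap. *Mmp12* (log2 fold change 2.44, SE 1.12, adjusted p = 0.146) and *Mmp13* (log2 fold change 3.70, SE 1.79, adjusted p = 0.165) did not pass either. *Mmp14* libraries did not overlap, at 94.4 to 144 CPM in L and 82.9 and 90.4 CPM in NL, with a log2 fold change of 0.37 (SE 0.21, adjusted p = 0.214). How many of all genes had no overlap was not counted, so the non-overlap of *Timp2* and *Mmp14* is no test result.

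Nonlesional and WT skin were compared to see what the transgene changes outside lesions. None of the 10 genes passed in edgeR, where 0% of all genes did, and none had an unadjusted p under 0.05. Over all genes 1465 had an unadjusted p under 0.05, and DESeq2 called 62 genes, 0 of the 10 among them. With 2 NL libraries the intervals were wide: the 95% interval of the log2 fold change ran from -1.11 to 0.18 for *Timp2*, from -1.43 to 1.08 for *Timp1* and from -1.40 to 7.52 for *Mmp13*.

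**Figure D3:**
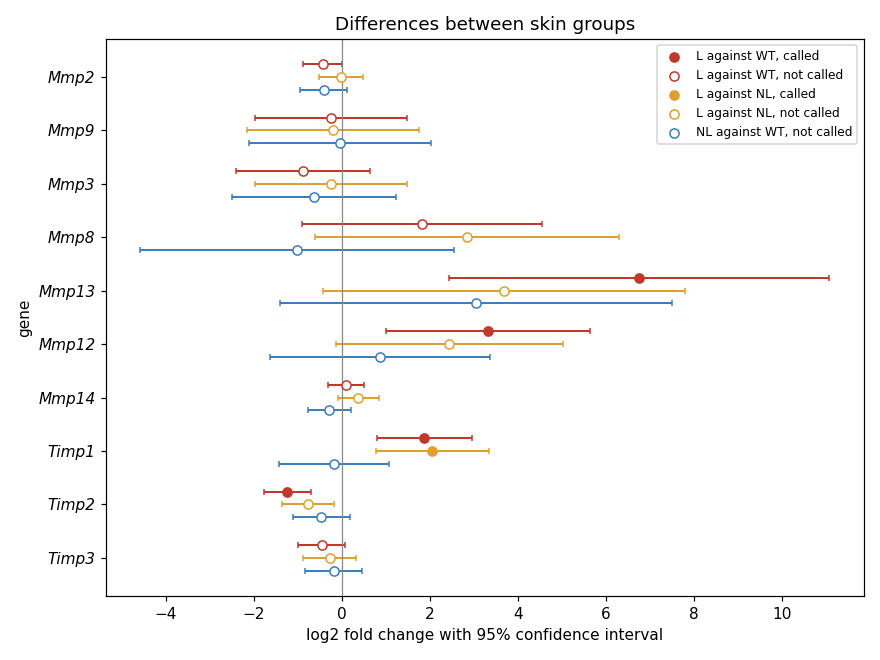
Log2 fold changes of the 10 genes with 95% confidence intervals for L against WT, L against NL and NL against WT. Filled points passed the edgeR test and open points did not. *Timp1* passed in both comparisons that hold L libraries (1.88 and 2.05), and within L against WT the interval of *Mmp13* (2.44 to 11.1) is the widest of the 10 genes.

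The summed RPKM of the 7 enzymes per summed RPKM of the 3 inhibitors was 1.05, 0.609, 0.753 and 0.732 in L replicates 4 to 7, 0.513 and 0.475 in NL, and 0.562, 0.490 and 0.451 in WT replicates 8 to 10. Each L library had a higher ratio than each NL and WT library, and this was not tested. The inhibitor sum was 95.4 to 126 RPKM in L and 138 to 259 RPKM in NL and WT, while the enzyme sum was 58.1 to 102 RPKM in L and 77.3 to 127 RPKM elsewhere. *Timp2* made up 60.8 to 76.4% of the inhibitor sum in L and 78.4 to 83.8% in NL and WT. *Timp1* made up 4.58 to 14.7% in L and 0.955 to 1.63% in NL and WT. With the longest transcript as gene length the ratio was 0.646 to 1.03 in L and 0.463 to 0.580 elsewhere. These are RNA ratios and hold nothing on active protein.

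**Figure D4:**
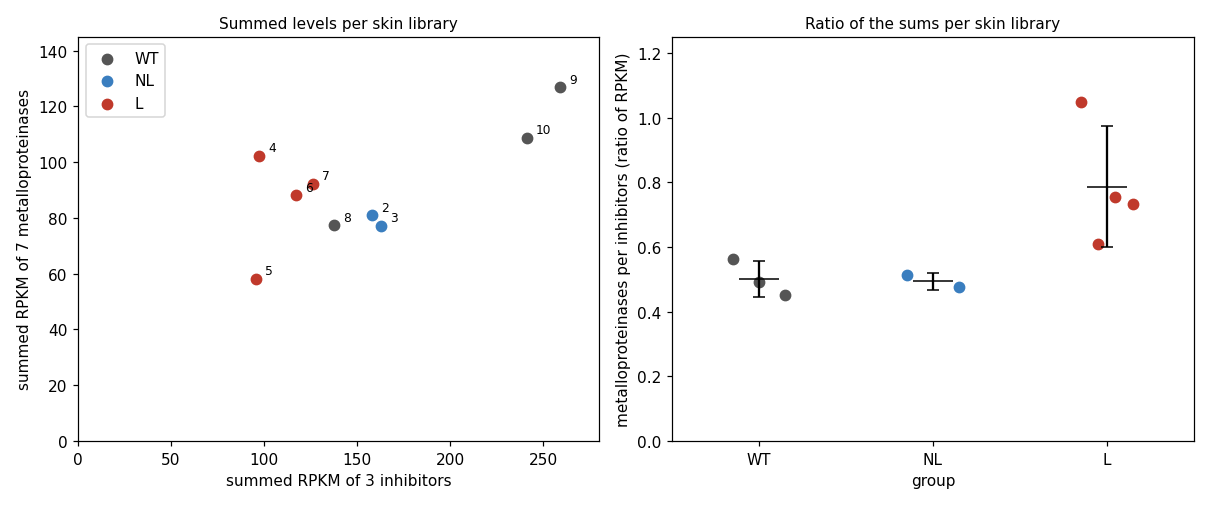
Left, summed RPKM of the 7 metalloproteinases against that of the 3 inhibitors in each skin library, labelled by replicate. Right, the ratio of the sums with the mean and SD per group. The 4 L libraries (0.609 to 1.05) have a higher ratio than WT and NL (0.451 to 0.562).

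Other genes of the system were counted from lists. In L against WT 43.1% of all genes passed, 23.0% higher and 20.2% lower, and each list count below is to be read beside these shares. Of 16 further *Mmp* genes 11 were tested, of which 4 were higher and 4 lower in L than in WT. *Mmp25*, a membrane-anchored enzyme of leukocytes, had a log2 fold change of 1.80 (SE 0.29, adjusted p = 0.00160), with 2.20 to 4.22 CPM in L and 0.831 to 1.11 CPM in WT. *Mmp15*, *Mmp23* and *Mmp27* were lower, with log2 fold changes of -0.79, -1.08 and -1.07 (adjusted p = 0.00172, 0.00731 and 0.0100). Within the chromosome 9 cluster, and chosen after their values were seen, *Mmp10* had 252, 4, 28 and 18 counts in L, 6 and 0 in NL and 0 in each WT library, and *Mmp20*, the enamel enzyme, had 5 to 15 counts in L and 0 in the other skin libraries. Directions in the cluster were mixed, with *Mmp27* lower and *Mmp13*, *Mmp12*, *Mmp10* and *Mmp20* higher. Of the higher genes, *Mmp20* and, outside L replicate 4, *Mmp10* had low counts, and the *Mmp12* and *Mmp13* calls rested on few libraries. *Mmp3* and *Mmp8*, also in the cluster, did not pass.

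Of 4 further inhibitors and cofactors tested, 3 were lower in L than in WT. These were *Bsg*, a surface inducer of metalloproteinases (log2 fold change -0.42, adjusted p = 0.0275), *Reck*, a membrane-anchored inhibitor (-0.73, 0.0281), and *Timp4*, a TIMP (-2.09, 0.0424). Of 20 ADAM and ADAMTS proteases 5 were higher and 4 lower, near the 43.1% of all genes that passed. The smallest adjusted p-values were those of *Adamts17* (log2 fold change 2.67), the sheddase *Adam10* (0.67), *Adamts20* (3.97) and the procollagen protease *Adamts2* (-1.19). Of 7 plasminogen system genes 2 were lower, among them the protease inhibitor *Serpine2* (log2 fold change -1.63). Of 5 cathepsins *Ctsd* (0.75) and *Ctsl* (0.58) were higher.

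Of 18 matrix substrates 1 was higher and 2 lower, a smaller share than the 43.1% of all genes that passed. The proteoglycan core gene *Acan* had 141, 42, 75 and 231 counts in L and at most 2 in NL and WT, while *Dcn* and *Hspg2* fell by 0.89 and 0.99 on the log2 scale. Of 9 cytokines and growth factors known to induce metalloproteinases 6 were higher and 1 lower. *Il1a* rose by 1.88 and *Il1b* by 5.53 on the log2 scale (adjusted p = 0.00505 and 0.0282), and *Egf* fell by 3.31 (0.00895). *Il17a* had 13, 8, 6 and 49 counts in L and 0 in each other skin library. *Il1b* was at 366 CPM in L replicate 4 and at 11.8 to 17.4 CPM in the other L libraries. Of 11 transcription factors, members of the AP-1 and ETS families and the Runt-family *Runx2*, 4 were higher and none lower, led by *Etv4* (log2 fold change 3.47, adjusted p = 0.000132), then *Runx2* (0.96), *Fosl2* (0.57) and *Ets2* (0.34).

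In skin, the genes whose profile was most like that of a member were named by the mean absolute difference of centred log2 CPM over the 9 libraries. For *Timp2* these were *Tmod2* (0.126) and *Zhx2* (0.128), for *Mmp12* *Trbv29* (0.380) and *2310057N15Rik* (0.468), and for *Mmp13* *Gm5478* (0.942) and *Cxcl10* (0.990). The smallest differences were those of *Dclk1* to *Mmp14* (0.0683) and of *Ugdh* to *Mmp2* (0.0830). *Mmp14* and *Mmp2* also varied least, with an SD of log2 CPM of 0.270 and 0.323. The SD was 0.648 for *Timp2*, 1.70 for *Mmp12* and 3.41 for *Mmp13*. This measure gives small differences for steady genes, so it does not rank how well profiles match between members.

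In SDLNs 8 of the 10 genes were tested; *Mmp13* (0 to 3 counts a library) and *Timp1* (0 to 7 counts) had too few counts. After UV in WT mice, the log2 fold changes of all 8 were below 0 (median -1.09, against -0.00485 over all 16173 genes), and *Timp2* alone passed. At the same threshold 4.98% of all genes passed and 2.06% were lower. *Timp2* was at 87.6, 72.2 and 88.2 CPM in untreated WT replicates 1 to 3 and at 69.2, 60.2 and 61.0 CPM after UV in replicates 7 to 9, with a log2 fold change of -0.38 (SE 0.10, adjusted p = 0.0486). The groups did not overlap. The call was lost with no low-count filter (adjusted p = 0.0572) and with no robust estimation (0.0508), and it held in 4 of 12 fits that each left out 1 library, those without untreated WT replicate 2 and UV-treated *Ifnk* TG replicates 10, 11 and 12, with log2 fold changes of -0.47 to -0.34 over the 12. *Mmp14* was at 6.70, 7.43 and 5.83 CPM untreated and at 5.17, 2.87 and 3.07 CPM after UV, again without overlap (log2 fold change -0.84, SE 0.26, adjusted p = 0.0759). It passed with DESeq2 (adjusted p = 0.0242), when only the WT libraries were fitted (0.0323), and without untreated *Ifnk* TG replicate 5 (0.0491), UV-treated WT replicate 7 (0.0411) or UV-treated *Ifnk* TG replicate 12 (0.0396). *Mmp9*, at an adjusted p of 0.302 with all libraries, passed in 1 of the 12 fits, that without UV-treated *Ifnk* TG replicate 12 (0.0427). *Timp3* was at 5.22, 4.92 and 3.90 CPM untreated and at 2.07, 2.00 and 2.64 CPM after UV, without overlap. It did not pass with all libraries (log2 fold change -1.06, SE 1.09, adjusted p = 0.578) or without UV-treated *Ifnk* TG replicate 11 (adjusted p = 0.0574), and passed when only the WT libraries were fitted (log2 fold change -1.07, adjusted p = 0.00933). Libraries of *Mmp9* and, at 0 or 1 counts after UV, of *Mmp8* did not overlap either. How many of all genes had no overlap was not counted, so non-overlap is no test result here. Summed CPM of lymph node stroma markers was 58.3 to 80.1 untreated and 18.1 to 49.7 after UV, that of erythroid markers 121 to 261 and 10.8 to 39.5, and their part in the difference was not tested. The substrates' median log2 fold change was -0.70, and of 16 tested 1 was lower, the basement membrane collagen *Col4a1* (log2 fold change -1.24, adjusted p = 0.0448).

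After UV in *Ifnk* TG mice none of the 8 passed in edgeR, where 0% of all genes did (1507 had an unadjusted p under 0.05, 3 of the 8 among them, and DESeq2 called 134, 0 of the 8). *Timp2* was at 82.6, 88.1 and 87.7 CPM untreated in replicates 4 to 6 and at 59.4, 73.4 and 69.8 CPM after UV in replicates 10 to 12 (log2 fold change -0.35, SE 0.10, adjusted p = 0.316). *Mmp14* had a log2 fold change of -0.74 (SE 0.26, adjusted p = 0.413). *Mmp9* was at 0.262, 0.244 and 2.14 CPM after UV, and without replicate 12 it passed (log2 fold change -2.83, adjusted p = 0.0178). In the same 3 libraries the summed CPM of neutrophil markers was 4.59, 4.73 and 15.7, against 10.1 to 17.6 untreated, and that of stroma markers was 27.4, 24.3 and 77.5, against 71.6 to 162 untreated. Their part in the *Mmp9* values was not tested.

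*Timp3* was at 68.6 CPM in UV-treated *Ifnk* TG replicate 11 and at 2.00 to 8.80 CPM in the other 11 SDLN libraries. Replicate 11 is the library with the high sum of kidney tubule genes, 2517 counts of *Umod* and 4394 of *Slc34a1* among them. That list was written after its values were seen, and the part of kidney RNA in the *Timp3* value was not tested. Without replicate 11 the log2 fold change of *Timp3* after UV in *Ifnk* TG mice went from 2.14 (SE 1.03, adjusted p = 0.559) to -0.67 (adjusted p = 0.672). In replicate 11 *Mmp14* (4.56 CPM) and *Mmp2* (0.905 CPM) lay within the range of the other UV-treated libraries, and *Timp2* (73.4 CPM) lay above their highest value of 69.8 CPM.

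*Ifnk* TG and WT nodes were compared without UV and after UV, and the response to UV was compared between genotypes. No gene of the 8 passed in any of these edgeR comparisons, where 0% of all genes passed; DESeq2 called 2, 21 and 5 genes and 0 of the 8 in each, against 549, 1131 and 881 genes with an unadjusted p under 0.05, among them 0, 2 and 1 of the 8. After UV, *Mmp8* had 2, 5 and 29 counts in *Ifnk* TG and 1, 0 and 0 in WT, too few for a fold (adjusted p = 0.673). *Timp3* after UV was 3.49 higher in *Ifnk* TG on the log2 scale (SE 1.12, adjusted p = 0.673) and 0.71 higher without replicate 11 (adjusted p = 0.955). For *Timp2* the response to UV differed between genotypes by 0.03 on the log2 scale (95% interval -0.28 to 0.34).

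**Figure D5:**
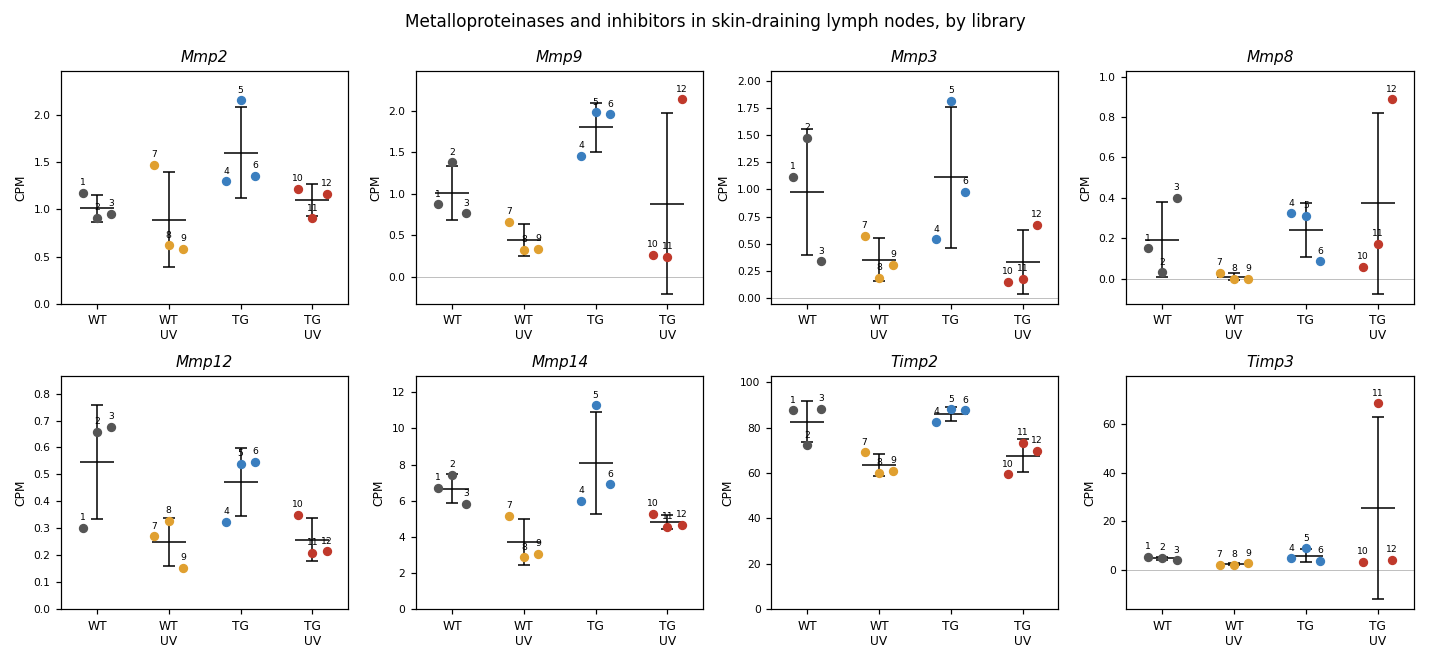
CPM of the 8 tested genes in each SDLN library, in WT and *Ifnk* TG mice, untreated or after UV, on linear axes. Points are libraries with their replicate number, and bars are the mean and SD. *Timp2* spans 59.4 to 73.4 CPM after UV and 72.2 to 88.2 CPM untreated, and *Timp3* in replicate 11 (68.6 CPM) stands apart.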

How the data were processed

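RNA was measured in 9 skin and 12 inguinal lymph node libraries from poly-A RNA. The authors deposited expected counts per gene, which were whole numbers without normalization and were rounded as read in. Per the labels' processing notes, cutadapt 4.8, FastQC 0.11.8, STAR 2.7.8a, RSEM 1.3.3 and MultiQC 1.20 were used with GRCm38; the annotation release is not given in the sources used here.

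Groups came from the labels. Genes were filtered by filterByExpr (minimum count 10, total 15), leaving 19101 for skin and 16173 for nodes, with TMM scaling. Each tissue had a single fit by group over its libraries, using the robust quasi-likelihood model of edgeR 4.0.16 in R 4.3.3, and tests were two-sided, with Benjamini-Hochberg adjustment over all tested genes and a threshold of 0.05. Adjusted p-values in the text are edgeR's unless DESeq2 1.42.0 is named. SEs were derived from the F statistic. RPKM used union exon lengths of GENCODE M21, which matched 55227 of 55491 rows. Floors of 3 counts cover counting error only, while 95% intervals of log2 fold changes come from the fit. The fit was tested on counts simulated from the real means, fitted spreads and library sizes, with known changes added. Small changes were recovered less often than large ones, and departures from that model were not tested.

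Named genes were the 10 members, at most 4 called genes per list by smallest adjusted p, and the 2 genes most like a member; a few of these are not reported here. The members and lists were chosen with earlier results of these data known. Alternatives were DESeq2, RLE scaling, no filter, no robust estimation, the compared groups only, tissue genes left out, and each library left out in turn.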

Additional observations from a re-analysis of the deposited data

Results flagged for a closer look

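Groups of 4 or more libraries were checked for 1 library far from the rest; only L skin had that many, and chance flags about 1 in 20 such checks, of which 20 were made. The summed CPM of neutrophil markers was 583 in L replicate 4, far above the other 3 L libraries (66.1 to 146). The summed CPM of adipocyte markers was 832 in L replicate 5, far below the others (3901 to 4342). The summed CPM of kidney tubule genes was 25.6 in L replicate 5, against 4.94 to 8.27 in the others. No CPM value of the 10 genes was flagged in this way.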

How the results depend on the processing

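No paired analysis was possible because the labels name no mouse. Whether L and NL libraries came from the same animals is not given. Of the alternatives that kept all libraries, those that moved the number of these 10 genes called were DESeq2 (3 for L against NL, 2 for UV in WT nodes), no low-count filter (2 for L against WT, where *Mmp12* and *Mmp13* had adjusted p = 0.0677 and 0.0624, and 0 for UV in WT nodes), no robust estimation (0 for UV in WT nodes) and the compared groups only (3 for UV in WT nodes: *Timp2*, *Timp3* and *Mmp14*). Over all genes, DESeq2 called 62 for NL against WT, 1972 for UV in WT nodes, 134 for UV in *Ifnk* TG nodes, 2 and 21 for genotype without and after UV, and 5 for the interaction. The compared groups alone gave 1 gene for NL against WT, 3156 for L against NL and 2431 for UV in WT nodes, and no filter gave 1 for genotype after UV. The cause was not tested.

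Leaving out each library in turn, the number of these genes called ranged from 2 to 4 for L against WT, 0 to 2 for L against NL, 0 to 3 for UV in WT nodes and 0 to 1 for UV in *Ifnk* TG nodes. Over all genes the ranges were 6243 to 8028, 1182 to 5187, 0 to 2644 and 0 to 236, with 0 to 1 and 0 to 2 for genotype without and after UV and 0 to 1 for the interaction. The lowest count for L against NL was without NL replicate 3, and the lowest and highest for UV in WT nodes were without UV-treated WT replicate 8 and UV-treated *Ifnk* TG replicate 12; the 236 genes for UV in *Ifnk* TG nodes also came without replicate 12. *Timp2* in L against NL passed with DESeq2 (adjusted p = 0.0302), with the compared groups only (0.0427) and without WT replicate 8 (0.0266). No called gene changed direction under these alternatives. Low counts limit *Mmp13*, *Mmp8* and *Timp1* in nodes and *Mmp13* in WT skin.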
